A study of Mus musculus with 19 samples.

Results

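The 8 genes described here, Pdgfra, Cd34, Ly6a, Scara5, Pi16, Dpt, Clec3b and Gsn, are markers of the fibroblasts of the adventitia, the outer coat of an artery. They were taken by name from 20408 genes measured by bulk RNA-Seq in the suprarenal aorta of 19 male mice. All mice were ApoE-/- on a C57BL/6J background, were fed chow, carried SMA-CreERT2, a tamoxifen-inducible Cre under the promoter of smooth muscle α-actin, and received tamoxifen at 8 weeks of age. IKKβ+/+ mice carried the wild-type kinase gene, and IKKβ-/- mice carried floxed alleles of it (IKKβ Flox/Flox), which the Cre deletes in smooth muscle cells and not by design in fibroblasts. Osmotic pumps under the skin delivered saline or angiotensin II (Ang II) for 24 h, Ang II at 1000 ng/min/kg by the study's methods (the labels give 500 to 1000), which leaves 5 saline and 5 Ang II mice that are IKKβ+/+ and 4 saline and 5 Ang II mice that are IKKβ-/-. Mice are named as in the labels (X2350 to X2409).

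Adventitial fibroblasts are mesenchymal cells that make the collagen-rich outer layer of the vessel, are recognised by the receptor Pdgfra, and lie beside nerves, small vessels, macrophages and fat. A subset with Pi16, Dpp4, Ly6a (also called Sca-1) and Cd34 is regarded as a progenitor-like population, while other perivascular fibroblasts carry few of these markers. On injury such fibroblasts can turn on matrix and contractile genes and lose some resting markers. None of the 8 genes is found in fibroblasts alone. Cd34 and Ly6a are also made by endothelial cells, and gelsolin (Gsn) by smooth muscle.

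All 8 genes were detected in every mouse and lay between rank 27 (Gsn) and rank 933 (Pdgfra) by mean normalized count. The identifiers and positions in the table (GRCm38) were those of the annotation used here. Pdgfra (ENSMUSG00000029231.15) lies at chr5:75152292-75198215, Cd34 (ENSMUSG00000016494.9) at chr1:194938819-194961279, Ly6a (ENSMUSG00000075602.10) at chr15:74994877-74998031 and Scara5 (ENSMUSG00000022032.14) at chr14:65666403-65764826. Pi16 (ENSMUSG00000024011.17) lies at chr17:29317680-29330593, Dpt (ENSMUSG00000026574.5) at chr1:164796644-164824266, Clec3b (ENSMUSG00000025784.5) at chr9:123150946-123157432 and Gsn (ENSMUSG00000026879.14) at chr2:35256380-35307892. Reads of Ly6a are less certain than the others, because the Ly6 family holds closely similar neighbours, and reads they share cannot be assigned with certainty.

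Cd34 was the only member that passed the test with Ang II, and Pdgfra and Dpt were among the members that varied most closely together between mice. Their upstream sequences are shown for that reason, with that of Gsn, the most abundant member. They come from RefSeq promoter windows (GRCm38.p6, plus strand), which were found for 5 of the 8 genes (Pdgfra, Cd34, Pi16, Dpt and Gsn) and not for Ly6a, Scara5 and Clec3b. Each ends at the last base before both the RefSeq and the annotated gene start. The windows shown are chr5:75152001-75152250 for Pdgfra, chr1:194938571-194938818 for Cd34, chr1:164796413-164796643 for Dpt and chr2:35256109-35256358 for Gsn. Capitals mark a match to any of 7 motifs searched on both strands.
Pdgfra: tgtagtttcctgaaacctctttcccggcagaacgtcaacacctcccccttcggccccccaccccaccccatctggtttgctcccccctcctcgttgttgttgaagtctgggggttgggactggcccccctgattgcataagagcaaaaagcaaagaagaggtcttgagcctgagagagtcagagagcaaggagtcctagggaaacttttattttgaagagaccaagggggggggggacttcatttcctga
Cd34: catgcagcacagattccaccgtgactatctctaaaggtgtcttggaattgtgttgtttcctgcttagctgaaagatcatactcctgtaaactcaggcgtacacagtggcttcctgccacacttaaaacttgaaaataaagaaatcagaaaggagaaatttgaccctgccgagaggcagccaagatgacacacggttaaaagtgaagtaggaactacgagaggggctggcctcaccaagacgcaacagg
Dpt: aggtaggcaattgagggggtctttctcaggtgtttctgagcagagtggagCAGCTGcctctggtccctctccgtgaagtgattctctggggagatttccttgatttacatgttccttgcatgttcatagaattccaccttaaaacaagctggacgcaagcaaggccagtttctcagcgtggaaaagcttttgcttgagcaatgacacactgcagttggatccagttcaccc
Gsn: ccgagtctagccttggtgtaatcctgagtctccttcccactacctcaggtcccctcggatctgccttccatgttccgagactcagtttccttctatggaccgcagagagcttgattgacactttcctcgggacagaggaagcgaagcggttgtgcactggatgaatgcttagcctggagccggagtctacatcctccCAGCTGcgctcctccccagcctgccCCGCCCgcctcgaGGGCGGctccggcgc

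The motifs were the E-box CAGCTG, the AP-1 motif TGANTCA, the TEAD motif GGAATG, the GC box GGGCGG, the TATA box TATAAA, and the CArG box and NF-κB motif, named only. The 250 bases before the start of Dpt held 1 E-box, at -200 to -195. The first of 3 Gsn windows held an E-box at -53 to -48 and 2 GC boxes at -28 to -23 and -15 to -10, none of them overlapping. The Pdgfra and Cd34 windows, and that of Pi16, which lies inside the annotated gene, held no match to any of the 7. Among all 32851 promoter windows of this length, 13% held the E-box, 6.75% the AP-1 motif, 12.6% the TEAD motif, 32.7% the GC box, 12.4% the TATA box, 1.47% the CArG box and 7.25% the NF-κB motif. A match is a run of letters, and no match says nothing of a factor. The GC content was 46.4% in the Cd34 window and 60.8% in the first Gsn window, and the median over all windows was 52.4%.

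Libraries held 11382573 to 19906694 reads assigned to genes. The Ikbkb transcript, which checks the deletion, ranged from 594 to 791 normalized counts in IKKβ+/+ and from 430.2 to 672 in IKKβ-/- mice, so single mice overlapped, and it was lower in IKKβ-/- mice averaged over treatments (log2 fold change -0.40, limma adjusted p = 0.0232). Whole aorta holds other cells than smooth muscle. No batch is stated, and the mouse numbers run in blocks by group, so the order of handling and the group cannot be told apart. In whole tissue fewer fibroblasts and less RNA per fibroblast cannot be told apart either.

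With Ang II in IKKβ+/+ mice, Cd34 fell to 0.575 times its saline level, and it was the only member of 8 to pass the test. Clec3b, Scara5 and Pdgfra had fold changes of 0.489, 0.518 and 0.577, with adjusted p-values above the threshold. Dpt stood at 0.675, while Gsn, Pi16 and Ly6a stood at 0.892, 0.979 and 1.04. No member passed in IKKβ-/- mice, between genotypes in either treatment or averaged over treatments, or in the difference of the Ang II effect between genotypes. Genes had to reach an adjusted p below 0.1 with a change of over 1.2-fold, the study's own limits, in limma on log2(normalized count + 1) over 14845 genes. Against all genes tested, 8.66% were called with Ang II in IKKβ+/+ mice (4.33% lower), 5.29% in IKKβ-/- mice, 5.47% between genotypes with saline, 0.128% with Ang II and 7.24% between genotypes averaged over treatments. The share of members called in IKKβ+/+ mice, 1 of 8, is near that background.

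**Figure D1:**
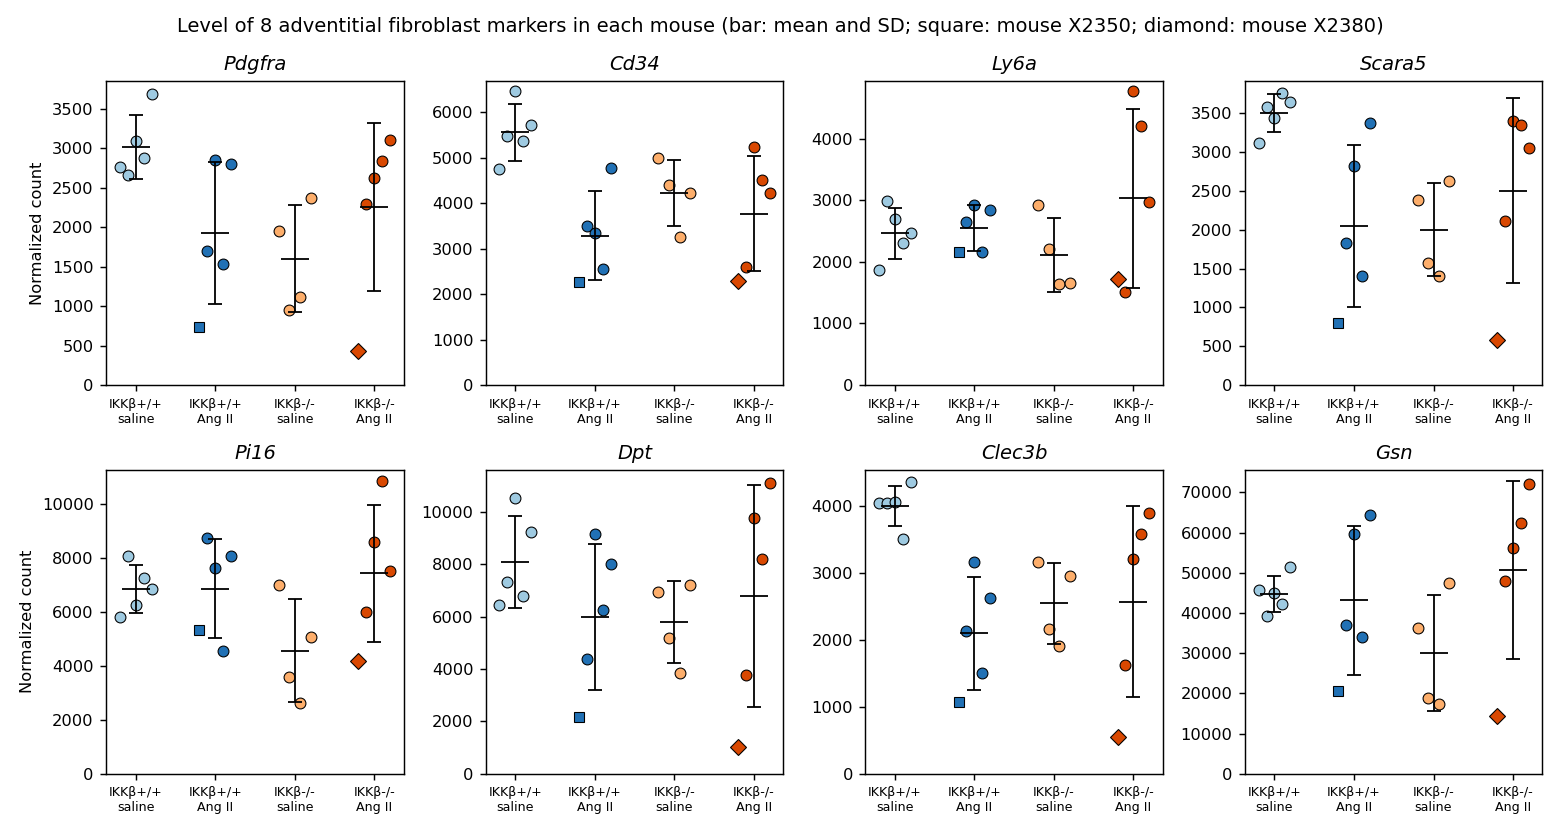
Normalized counts (y axes, from 0) of the 8 genes in the 4 groups, with 1 point for each mouse and a bar for the mean and SD. The IKKβ+/+ saline mice lie close together, while mouse X2350 (square) and mouse X2380 (diamond) lie low for most genes, and Cd34 has means of 5556 with saline and 3288 with Ang II in IKKβ+/+ mice.

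Pdgfra encodes the α receptor for platelet-derived growth factors and is the usual pan-fibroblast surface marker. In IKKβ+/+ mice it stood at 2766, 2658, 3087, 2881 and 3689 normalized counts with saline (mice X2370, X2372, X2373, X2376 and X2378) and at 741, 1694, 2849, 1534 and 2798 with Ang II (mice X2350, X2352, X2356, X2358 and X2359). 3 of the 5 Ang II mice lay below every saline mouse, and mice X2356 and X2359 lay among them. Among IKKβ-/- mice the values were 1952, 951, 1117 and 2372.2 with saline (mice X2401, X2403, X2406 and X2409) and 433, 2288, 2629, 2839 and 3100.2 with Ang II (mice X2380, X2383, X2384, X2385 and X2386). Mouse X2380 was the lowest of all 19 mice while mice X2384, X2385 and X2386 lay above every saline mouse. All 4 IKKβ-/- saline mice lay below all 5 IKKβ+/+ saline mice. The log2 fold change with Ang II was -0.79 (SE 0.44, 95% interval -1.72 to 0.13, adjusted p = 0.324) in IKKβ+/+ mice and 0.33 (SE 0.47, 95% interval -0.65 to 1.31, adjusted p = 0.775) in IKKβ-/- mice, and that between genotypes with saline was -1.01 (SE 0.47, 95% interval -1.98 to -0.03, adjusted p = 0.244), none of which passed.

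Cd34 encodes a sialomucin of the cell surface found on adventitial fibroblasts, endothelium and haematopoietic progenitors. With saline it stood at 4744, 5467, 6475, 5368 and 5726 normalized counts in IKKβ+/+ mice, and with Ang II at 2269.6, 3502, 3349, 2544 and 4777, in the same order of mice as above. 4 of 5 Ang II mice lay below every saline mouse, and mouse X2359 lay just above the lowest of them. The mean fell from 5556 ± 628 to 3288 ± 982 (SD, n = 5 each), a log2 fold change of -0.80 (SE 0.22, 95% interval -1.25 to -0.35, adjusted p = 0.0419). Among IKKβ-/- mice the Cd34 values were 4992, 4405, 3245 and 4225 with saline and 2292, 2594, 5226, 4504 and 4224 with Ang II, and the groups overlapped. That fold change was -0.22 (SE 0.23, 95% interval -0.69 to 0.26, adjusted p = 0.678), and the difference between the genotypes' fold changes was 0.58 (SE 0.31, 95% interval -0.07 to 1.24, adjusted p = 0.488), which did not pass. Averaged over both genotypes Cd34 was also lower with Ang II, with a log2 fold change of -0.51 (SE 0.16, 95% interval -0.84 to -0.18, adjusted p = 0.0476), where 12.7% of all genes were called (7.05% lower). The call in IKKβ+/+ mice was lost without mouse X2350 (log2 fold change -0.68, adjusted p = 0.132), without mouse X2358 (-0.72, adjusted p = 0.126) or with the smooth muscle score as a covariate (-0.58, adjusted p = 0.175). The averaged call was lost without mouse X2401 (-0.46, adjusted p = 0.101).

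Cd34 is shared with endothelium, so endothelial markers are given beside it. The summed level of 10 endothelial markers ranged from 23118 to 38479.6 normalized counts in IKKβ+/+ saline mice and from 13257 to 25662 with Ang II, where 8 of the 10 had a log2 fold change below 0 and 1, the receptor gene Tek, was called lower. Over 19 mice Cd34 and that sum had a Pearson's r of 0.64 (adjusted permutation p = 0.0118) and a Spearman's rho of 0.66 (adjusted permutation p = 0.0112), and r was 0.49 without the 2 mice farthest from the median sum. For the other seven members r with the endothelial sum lay between -0.02 and 0.35 and none passed by r, while by rho Scara5 (rho 0.51, adjusted permutation p = 0.0552) and Clec3b (rho 0.52, adjusted permutation p = 0.0514) did. On deviations from group means r was 0.50 for Ly6a, 0.44 for Cd34 and 0.29 for Pi16. It was 0.01 for Scara5 and 0.04 for Clec3b, and lay between -0.16 (Pdgfra) and 0.02 (Dpt) for the rest. The part of endothelium in the Cd34 result was not tested.

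Ly6a, which encodes the surface antigen Sca-1, had nearly the same mean in both IKKβ+/+ groups. It ranged from 1875 to 2980.5 with a median of 2464 normalized counts with saline and from 2153 to 2926 with a median of 2649 with Ang II, and the ranges overlapped. The log2 fold change was 0.05 (SE 0.26, 95% interval -0.49 to 0.59, adjusted p = 0.938). Among IKKβ-/- mice Ly6a ranged from 1645 to 2924 with a median of 1932 with saline and from 1510.4 to 4773 with a median of 2964 with Ang II. Mice X2384 and X2385 were the highest of all 19 mice, and mouse X2383 of the same group was the lowest. That fold change was 0.42 (SE 0.27, 95% interval -0.15 to 0.99, adjusted p = 0.453). Mice X2384 and X2385 also had the highest adipocyte marker sums of the 19 mice, 45459 and 46027 normalized counts. Over 19 mice Ly6a and the adipocyte sum had an r of 0.56 (adjusted permutation p = 0.0311) and a rho of 0.31 (adjusted permutation p = 0.258). Without the 2 mice farthest from the median sum r was 0.01. The part of fat in the Ly6a values was not tested.

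Scara5 encodes a scavenger receptor that takes up ferritin and marks Pi16-type and other perivascular fibroblasts. In IKKβ+/+ mice it stood at 3114, 3579.9, 3445, 3758 and 3642 normalized counts with saline, the tightest member of that group with a CV of 7.05%, and at 796, 1829, 2825, 1410.2 and 3379 with Ang II. 4 of 5 Ang II mice lay below every saline mouse and mouse X2359 lay among them. The IKKβ-/- mice had Scara5 at 2385.8, 1577, 1409 and 2634 with saline and 581, 2115, 3402, 3354 and 3057 with Ang II, where mouse X2380 lay below all others and 3 mice lay above every saline mouse. All 4 IKKβ-/- saline mice lay below all 5 IKKβ+/+ saline mice. The log2 fold change with Ang II was -0.95 (SE 0.41, 95% interval -1.80 to -0.10, adjusted p = 0.191) in IKKβ+/+ mice and 0.13 (SE 0.43, 95% interval -0.77 to 1.03, adjusted p = 0.912) in IKKβ-/- mice, and with saline that between genotypes was -0.86 (SE 0.43, 95% interval -1.76 to 0.04, adjusted p = 0.284).

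Pi16 encodes peptidase inhibitor 16, a secreted and membrane-bound protein whose gene names the progenitor-like fibroblast subset. In IKKβ+/+ mice it stood at 5811, 8101, 6256, 7258 and 6842 normalized counts with saline and 5329.6, 8759, 7636, 4557 and 8084 with Ang II. The saline values lay inside the range of the Ang II values, and the log2 fold change was -0.03 (SE 0.26, 95% interval -0.56 to 0.50, adjusted p = 0.964). The IKKβ-/- mice had Pi16 at 6997, 3608, 2627 and 5067 with saline and 4203, 5997, 8600.5, 10874 and 7528 with Ang II, so that 3 of 5 Ang II mice lay above every saline mouse and no Ang II mouse lay below them all. That fold change was 0.72 (SE 0.27, 95% interval 0.16 to 1.29, adjusted p = 0.161), which did not pass. The difference between the fold changes of the genotypes was 0.76 (SE 0.37, 95% interval -0.02 to 1.53, adjusted p = 0.457), and its unadjusted limma p of 0.056 was the smallest of the members.

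Dpt encodes dermatopontin, a small matrix protein that binds decorin and collagen fibrils and marks fibroblasts of many tissues. It ranged from 6433 to 10546 with a median of 7341 normalized counts in IKKβ+/+ saline mice and from 2185 to 9163 with a median of 6251 in IKKβ+/+ Ang II mice. The IKKβ-/- mice ranged from 3864 to 7197 with a median of 6065 with saline and from 1029.5 to 11110.4 with a median of 8215 with Ang II, a span of 10.8-fold within 1 group. Mouse X2380 was the lowest and mouse X2386 the highest of all 19 mice, and all 4 ranges overlapped. The log2 fold changes with Ang II were -0.57 (SE 0.49, 95% interval -1.59 to 0.46, adjusted p = 0.553) in IKKβ+/+ mice and -0.14 (SE 0.52, 95% interval -1.23 to 0.94, adjusted p = 0.925) in IKKβ-/- mice.

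Clec3b encodes tetranectin, a secreted C-type lectin that binds plasminogen. In IKKβ+/+ mice it stood at 4030.3, 4032, 4051, 3506 and 4344 normalized counts with saline and at 1065, 2123, 3152, 1497 and 2628 with Ang II. All 5 Ang II mice lay below all 5 saline mice, and Clec3b was the only member whose groups did not overlap in this comparison. Of all genes tested, 8.42% did not overlap between these groups (4.47% lower with Ang II). The log2 fold change was -1.03 (SE 0.40, 95% interval -1.86 to -0.21, adjusted p = 0.140), which did not pass in the fit over all 4 groups. Fitted on the 2 groups alone, Clec3b passed (adjusted p = 0.0285), as did Scara5 (adjusted p = 0.0831). Values in IKKβ-/- mice were 3150.2, 2163, 1904 and 2947 with saline and 549, 1618, 3205, 3582 and 3887 with Ang II, with 3 Ang II mice above and 2 below every saline mouse, and a log2 fold change of -0.25 (SE 0.42, 95% interval -1.13 to 0.62, adjusted p = 0.813). Without mouse X2356 Clec3b also passed in IKKβ+/+ mice (adjusted p = 0.0792). Without mouse X2380 both Clec3b (adjusted p = 0.0251) and Scara5 (adjusted p = 0.054) did. Over all genes, 1286 were called with Ang II in IKKβ+/+ mice, and between 431 and 1918 when 1 mouse was left out. Whether the added calls of Clec3b and Scara5 exceed a general rise in calls under those settings was not tested.

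Gsn encodes gelsolin, an actin-severing protein with a cytoplasmic and a secreted form, and was the most abundant member. In IKKβ+/+ mice it stood at 45709, 39187, 44949, 42267 and 51452 normalized counts with saline and 20491, 36971, 59634, 33999.9 and 64439 with Ang II. 3 of the Ang II mice lay below and 2 above every saline mouse, so the means were close and the spread was wider with Ang II, and the log2 fold change was -0.16 (SE 0.39, 95% interval -0.98 to 0.65, adjusted p = 0.861). Values in IKKβ-/- mice were 36315, 18847, 17299 and 47345 with saline and 14397, 47894, 56168, 62462 and 72159 with Ang II. 4 of 5 Ang II mice lay above every saline mouse and mouse X2380 lay below them. That fold change was 0.70 (SE 0.41, 95% interval -0.16 to 1.56, adjusted p = 0.395). Without mouse X2380, Gsn (adjusted p = 0.0663) and Pi16 (adjusted p = 0.0517) passed as higher with Ang II in IKKβ-/- mice, and without mouse X2401 Pi16 did (adjusted p = 0.0911).

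**Figure D2:**
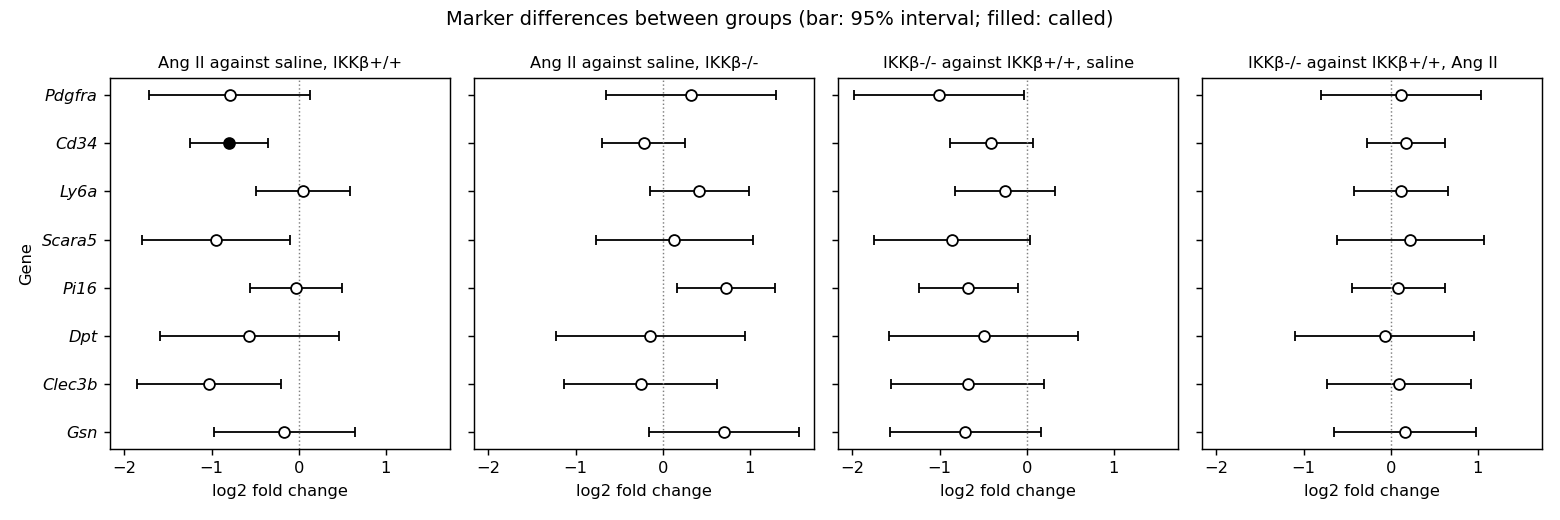
Log2 fold change (x axes) of each gene (y axis) in the 4 comparisons between 2 groups, with the 95% interval from limma as a bar and a filled circle for a called gene. Cd34 with Ang II in IKKβ+/+ mice, at -0.80, is the only filled circle.

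Between the saline groups all 8 members had a log2 fold change below 0, with a median of -0.67, where the median of all genes was -0.02 and 52.4% of all genes lay below 0. The members varied together over the same mice (median r 0.74 between pairs), so a shared sign is not 8 separate observations. Pdgfra, Scara5 and Clec3b did not overlap between these groups, as 8.76% of all genes did not (4.08% lower in IKKβ-/- mice). Of the macrophage markers 10 of 10 had a log2 fold change below 0 (median -0.61), of the endothelial markers 8 of 10 (median -0.61) and of the adipocyte markers 7 of 8 (median -2.30), while 8 of 10 smooth muscle markers lay above 0 (median 0.21). Endothelial sums ranged from 14820 to 31175 normalized counts in the IKKβ-/- saline mice, against 23118 to 38479.6 in the IKKβ+/+ saline mice. The part of these cell types in the members' values was not tested. None of the 8 was called in the fit over all groups. Fitted on the 2 saline groups alone, Pdgfra (adjusted p = 0.0478), Scara5 (adjusted p = 0.0378) and Clec3b (adjusted p = 0.0422) passed. In that fit 1420 of the 14845 genes were called, against 812 in the fit over all groups. Without mouse X2380, which is in neither group but enters the estimate of the spread, Pdgfra passed (adjusted p = 0.0814). With Ang II the genotypes overlapped for every member (1.54% of all genes did not overlap), log2 fold changes ran from -0.07 (Dpt) to 0.23 (Scara5), and 0 of 8 were called. Of all genes 0 were called for the difference of the Ang II effect between genotypes by limma (0%), and 279 by DESeq2 and 3 by edgeR, none of them a member. At an unadjusted p under 0.05 limma gave 1654 of all genes for that difference and 0 of the members. All 8 members, again not separate observations, had a difference above 0, from 0.37 (Ly6a) to 1.12 (Pdgfra), where 50.2% of all genes lay below 0. The same sign was held by 10 of 10 macrophage, 9 of 10 endothelial and 13 of 14 pan-fibroblast genes. The groups of saline mice enter both this difference and the comparison between genotypes.

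The spread between mice differed from group to group. The coefficient of variation of the 8 genes ran from 7.05% to 21.7% in IKKβ+/+ saline mice, from 14.6% to 51.2% in IKKβ+/+ Ang II mice, from 17.2% to 48.2% in IKKβ-/- saline mice and from 33.7% to 62.6% in IKKβ-/- Ang II mice. Mouse X2380 was the lowest of the 19 mice for 5 members (Pdgfra, Scara5, Dpt, Clec3b and Gsn) and among the lowest 2 for 6. Mouse X2350 was among the lowest 2 for 5 members, and mouse X2406 for 3 (Ly6a, Pi16 and Gsn). No library stood far enough from its group in any of 32 sets of a gene and a group to be an outlier by Dixon's test.

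**Figure D3:**
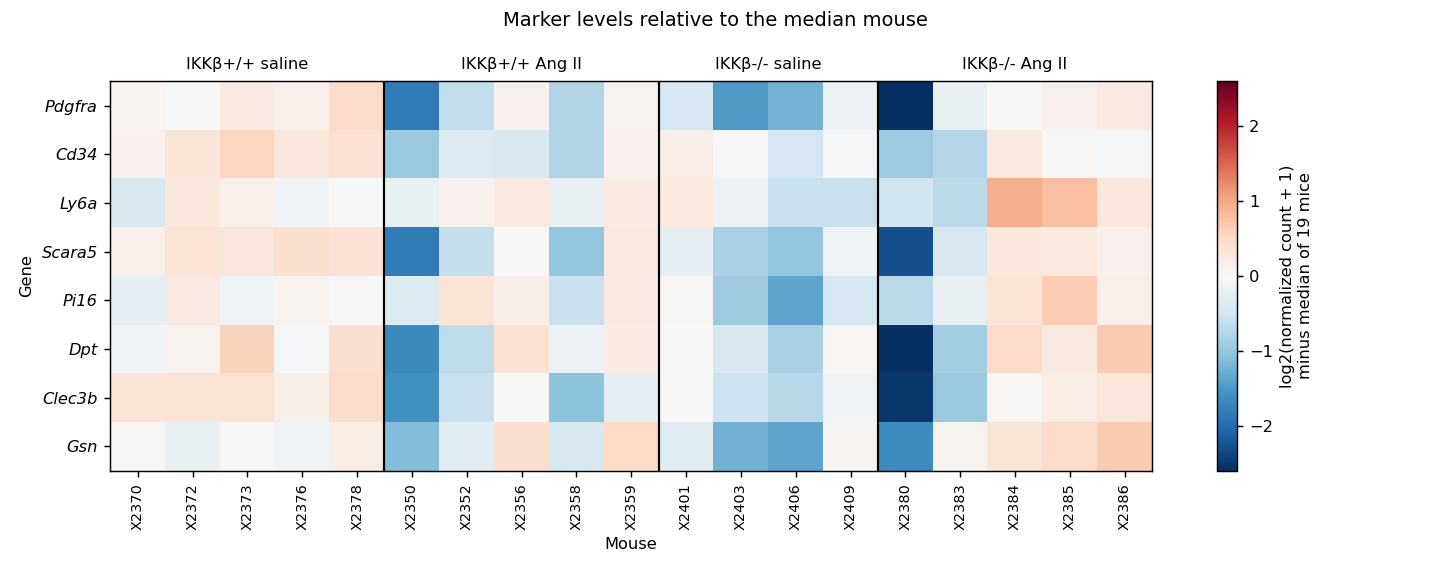
Level of each gene (rows) in each mouse (columns, by group) as log2(normalized count + 1) minus the median of 19 mice, from blue (low) to red (high). Mice X2350, X2358, X2380 and X2406 are below the median for all 8 genes, and mice X2383 and X2403 for 7. In mice X2350 and X2380 Ly6a and Pi16 lie nearer to their medians than Pdgfra and Scara5.

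Mouse X2380 had the lowest sum of the 10 macrophage markers of all 19 mice (3175 normalized counts). Mouse X2350 had 4977, the lowest of the IKKβ+/+ mice, though inside the range of the IKKβ-/- saline mice. The smooth muscle sum was 661862 in mouse X2350, rank 18 of 19 from the lowest, and 591568 in mouse X2380, rank 15. Without both mice, an alternative chosen after seeing that the members were lowest there, Cd34 kept its call with Ang II in IKKβ+/+ mice and Clec3b passed too (adjusted p = 0.0757). In that comparison 700 genes were then called, against 1286 with all mice. Between genotypes with saline Pdgfra (adjusted p = 0.0288) and Scara5 (adjusted p = 0.043) then passed as lower in IKKβ-/- mice, where 1301 genes were called, against 812 with all mice. In IKKβ-/- mice Pdgfra (adjusted p = 0.055), Pi16 (adjusted p = 0.048) and Gsn (adjusted p = 0.0354) then passed as higher with Ang II, a direction to which leaving out the lowest Ang II mouse itself contributes. There 1260 genes were called (617 higher), against 785 with all mice.

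The members correlated negatively with the smooth muscle sum and positively with the macrophage sum. The sum of 10 smooth muscle markers ranged from 388951 to 509299 normalized counts in IKKβ+/+ saline mice, from 509064 to 700658 in IKKβ+/+ Ang II mice, from 483265 to 659488 in IKKβ-/- saline mice and from 339522 to 591568 in IKKβ-/- Ang II mice. With Ang II in IKKβ+/+ mice 3 of these 10 (Des, Cnn1 and Tagln) were called higher, where 8.66% of all genes were called in either direction. The sum of 10 macrophage markers ranged from 7301 to 10788 in IKKβ+/+ saline mice, 4977 to 11876 in IKKβ+/+ Ang II mice, 4846 to 6525 in IKKβ-/- saline mice and 3175 to 14749 in IKKβ-/- Ang II mice. Between genotypes with saline 2 of 10 (Adgre1 and Cd68) were called lower, where 5.47% of all genes were called in either direction. Over 19 mice r with the macrophage sum lay between 0.61 and 0.78 for the 8 members and rho between 0.61 and 0.78, with adjusted permutation p-values of at most 0.0187 over 64 relations of a member with a list. Without the 2 mice farthest from the median sum r lay between 0.42 and 0.68. With the smooth muscle sum r lay between -0.66 (Cd34) and -0.32 (Pi16), and 6 of 8 passed at an adjusted p under 0.1, the exceptions being Pi16 and Gsn. For lists of fibroblast genes described below, r lay between 0.50 (Ly6a) and 0.96 (Pdgfra) with the perivascular stromal sum. With the pan-fibroblast sum it lay between 0.30 (Ly6a) and 0.90 (Clec3b), and with the Dpp4+ Pi16+ sum between 0.33 (Ly6a) and 0.61 (Pi16). By r, Ly6a and Pi16 did not pass with the pan-fibroblast sum (adjusted permutation p = 0.278 and 0.119). Nor did Ly6a and Clec3b with the Dpp4+ Pi16+ sum (adjusted permutation p = 0.222 and 0.1255). By rho Pi16, Dpt and Gsn also did not there, nor Gsn with the pan-fibroblast sum. Ly6a had its highest r with the macrophage sum. For all 8 members the macrophage r was above that with the Dpp4+ Pi16+ sum, narrowly for Pi16. Every other member had a higher r with the perivascular stromal or pan-fibroblast sum. The part of tissue composition in the members' values was not tested.

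Adipocyte sums ranged from 4689.8 to 19546 normalized counts in IKKβ+/+ saline mice, from 7103 to 13665 in IKKβ+/+ Ang II mice, from 4939 to 7579.85 in IKKβ-/- saline mice and from 8418 to 46027 in IKKβ-/- Ang II mice, where 7 of 8 tested were called higher with Ang II. Of all genes 5.29% were called there, in either direction. Over 19 mice Ly6a (r 0.56) and Pi16 (r 0.50, adjusted permutation p = 0.0602) passed by r with the adipocyte sum. By rho only Gsn passed (rho 0.56, adjusted permutation p = 0.0345). For the other members r lay between 0.05 (Cd34) and 0.41 (Gsn). Mesothelial sums did not pass 369.5 in any mouse, and Krt8, Msln, Upk3b and Upk1b were not among the genes of the table used here. Lymphocyte sums did not pass 75.8, and Cd3e and Cd3d were each at 0 in 10 mice. Adrenal sums ranged from 3.60 to 345 except in mouse X2356, which had 2519. Brown adipocyte, striated muscle, Schwann cell and pericyte sums ranged over all mice from 28.8 to 1961, from 72.5 to 502, from 554 to 3558 and from 34631 to 101976.

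Per kilobase of exon, which allows levels of different genes to be compared, the order in IKKβ+/+ saline mice was Gsn, Dpt, Clec3b, Ly6a, Pi16, Cd34, Scara5 and Pdgfra. Gsn stood at 14163 ± 1443 normalized counts per kilobase, Dpt at 4684 ± 1019, Clec3b at 4025 ± 305 and Ly6a at 2046 ± 345 (SD, n = 5). Pi16 stood at 1077 ± 140 (SD, n = 5), Cd34 at 762 ± 86.1, Scara5 at 576 ± 40.6 and Pdgfra at 300.9 ± 40.7. In this group Dpt and Clec3b were the only neighbours whose ranges overlapped. In the IKKβ+/+ Ang II mice 5 of the 7 neighbouring pairs overlapped and in the IKKβ-/- Ang II mice all 7 did, so the order is not resolved there. The length is that of all annotated exons merged, which lowers the level of genes with long alternative exons.

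The 8 genes varied together between mice. Over 19 mice all 28 pairs had a Pearson's r above 0 on log2(normalized count + 1), from 0.44 (Cd34 and Pi16) to 0.97 (Pdgfra and Scara5), with a median of 0.74. By permutation with adjustment over the 28 pairs, 28 passed at an adjusted p under 0.1 by r and 27 by Spearman's rho, the exception being Cd34 and Gsn (rho 0.35, adjusted permutation p = 0.136). For Pdgfra and Scara5, Pearson's r was 0.97 (adjusted permutation p = 4e-05) and Spearman's rho 0.86 (adjusted permutation p = 7e-05). The smallest p that these permutations give is 1e-05. Without the 2 mice farthest from the median of the first gene of a pair, r ran from 0.23 to 0.91 and stayed above 0 in all 28. All points share the scaling of their library.

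Pdgfra, Scara5, Dpt and Clec3b formed the closest set, with r from 0.90 to 0.97 in their 6 pairs. Gsn had an r of 0.92 with Pdgfra, 0.85 with Scara5 and 0.52 with Cd34. Ly6a and Pi16 were closer to each other than to most of the rest: Pearson's r was 0.75 (adjusted permutation p = 0.0006) and Spearman's rho 0.82 (adjusted permutation p = 0.0002). With Pdgfra, Ly6a had an r of 0.45 (adjusted permutation p = 0.0554). These sets were picked after the values were seen and were not tested as sets.

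The relation was also present within groups. On deviations from the group means, permuted within groups, all 28 pairs had an r above 0, from 0.48 to 0.98 with a median of 0.80, and 26 passed by r and 28 by rho. The other two did not pass by r, Ly6a with Pdgfra (r 0.49, adjusted permutation p = 0.118) and Ly6a with Gsn (r 0.48, adjusted permutation p = 0.122). Without mice X2350 and X2380, 23 of 28 passed by r and 21 by rho on these deviations, with r from 0.23 to 0.97. On levels, 25 passed by r and 21 by rho without them, with r from 0.23 to 0.91.

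**Figure D4:**
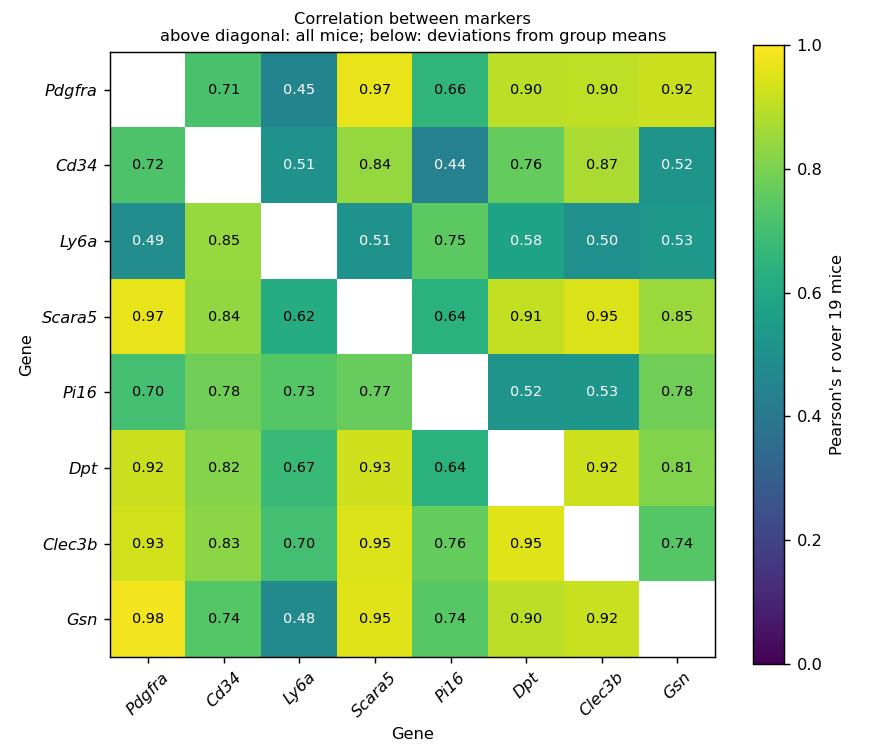
Pearson's r between each pair of the 8 genes over 19 mice, on levels above the diagonal and on deviations from group means below it, with colour from 0 (dark) to 1 (yellow). Pdgfra, Scara5, Dpt, Clec3b and Gsn are yellow with each other below the diagonal, and Ly6a is darkest with Pdgfra and Gsn, at 0.49 and 0.48.

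Among 11420 other genes with a mean of at least 50 normalized counts, Pdgfra had the highest r of all with Scara5, and Scara5 came at rank 3 for Pdgfra. Clec3b came at rank 7 for Cd34 and rank 8 for Dpt, and Pdgfra at rank 8 for Gsn. For Ly6a the nearest member, Pi16, came at rank 23, and Pdgfra at rank 945. Outside the 8, the genes most like Pdgfra were Lama2 (a laminin chain, r 0.98), Naalad2 (a peptidase, r 0.97) and Col14a1 (a fibril-associated collagen, r 0.96). Those most like Cd34 were Pltp (phospholipid transfer protein, r 0.91), Gm2a (r 0.90) and Itm2b (r 0.89). For Scara5 they were Entpd2 (an ectonucleotidase, r 0.96), Gpc3 (a glypican, r 0.96) and Naalad2 (r 0.95), and for Clec3b Glt8d2 (r 0.98), Entpd2 (r 0.97) and Pltp (r 0.96). For Dpt they were Egflam (a matrix protein, r 0.96), C1ra and C1s1 (proteases of the first complement component, r 0.95 and 0.94), and for Gsn Fbln1 (fibulin-1, r 0.97), Serping1 (the C1 inhibitor, r 0.96) and C7 (a terminal complement component, r 0.95). For Pi16 they were S1pr2 (a sphingosine-1-phosphate receptor, r 0.88), Dpep1 (a dipeptidase, r 0.86) and Lipa (lysosomal acid lipase, r 0.86). For Ly6a they were Ablim3 (r 0.84), Ap3s1 (r 0.82) and Sting1 (r 0.81). These are the largest of very many values over the same 19 mice and carry no test.

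Wider lists of fibroblast genes gave the following counts. Changes below are log2 fold changes from limma. Of 14 pan-fibroblast genes, 2 were called lower with Ang II in IKKβ+/+ mice, as 4.33% of all genes were, and 13 had a log2 fold change below 0 (median -0.49). They were Lum, encoding the collagen-binding proteoglycan lumican, at 7391 ± 850.0 normalized counts with saline and 3203 ± 980.2 with Ang II (SD, n = 5 each), a log2 fold change of -1.27 (SE 0.40, adjusted p = 0.0757), and Islr, encoding meflin, at 3822 ± 169 and 2298 ± 439, a change of -0.75 (SE 0.18, adjusted p = 0.0217). In IKKβ-/- mice 0 of 14 were called (median -0.10). With saline, Mmp2, the gelatinase A gene, was lower in IKKβ-/- mice, 2426 ± 968 (n = 4) against 4286 ± 474 (n = 5), a change of -0.91 (SE 0.28, adjusted p = 0.0901). The summed level of the 14 genes ranged from 358409 to 525244 in IKKβ+/+ saline mice and from 262884 to 362047 with Ang II.

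Of 13 genes of Dpp4+ Pi16+ fibroblasts, 0 were called with Ang II in IKKβ+/+ mice (median -0.26). Igfbp6, which encodes a binding protein of IGF-II, was higher with Ang II in IKKβ-/- mice, 2081 ± 836 normalized counts (n = 5) against 776 ± 233 (n = 4), a change of 1.33 (SE 0.34, adjusted p = 0.0406), and the transcription factor gene Creb5 was lower, 589 ± 127 against 1349 ± 469.5, a change of -1.16 (SE 0.24, adjusted p = 0.0144). With saline Creb5 was higher in IKKβ-/- than in IKKβ+/+ mice by 0.80 (SE 0.24, adjusted p = 0.0812), and Cd248, encoding endosialin, was lower, with a log2 fold change of -0.58 (SE 0.17, adjusted p = 0.0826). Of 9 perivascular stromal genes, the chemokine gene Cxcl14 was called higher with Ang II in IKKβ+/+ mice, 46.8 ± 46.0 against 9.19 ± 4.62, a change of 1.91 (SE 0.65, adjusted p = 0.0966). Apod, the apolipoprotein D gene, was called higher in IKKβ-/- mice, 1140.1 ± 401 against 242 ± 100.9, a change of 2.25 (SE 0.45, adjusted p = 0.0124). Between genotypes with Ang II, Col15a1, encoding a basement membrane collagen, was lower in IKKβ-/- mice, with a log2 fold change of -1.02 (SE 0.19, adjusted p = 0.0803), the only called gene of these lists in that comparison.

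Of 10 activated fibroblast genes, 9 had a log2 fold change above 0 with Ang II in IKKβ+/+ mice, 3 were called higher and 1 lower (median 0.68). Of all genes 8.66% were called there, in either direction. Adam12, a metalloprotease-disintegrin gene of activated stroma, was at 25.9 ± 13.1 normalized counts with saline and 246 ± 171 with Ang II, a change of 3.07 (SE 0.54, adjusted p = 0.00490). Timp1, an inhibitor of metalloproteinases, changed by 1.68 (SE 0.36, adjusted p = 0.0150) and Postn, the matricellular gene periostin, by 0.84 (SE 0.19, adjusted p = 0.0199). Fap, encoding fibroblast activation protein, was lower, with a log2 fold change of -1.17 (SE 0.26, adjusted p = 0.0171). Of the same 10 genes, 1 was called in IKKβ-/- mice (median 0.29), Adam12 by 2.41 (SE 0.57, adjusted p = 0.0257). Averaged over treatments 4 of 10 were called lower in IKKβ-/- mice, among them Adam12 with -1.72 (SE 0.39, adjusted p = 0.0303) and Lox, encoding lysyl oxidase, with -0.61 (SE 0.14, adjusted p = 0.0342). Of all genes 7.24% were called in that comparison, in either direction. Mouse X2350, low for most of the 8 members, had the highest sum of the 10 activated genes of all 19 mice, 298030.5 normalized counts. Sums ran from 95536 to 163412 in the group of mouse X2380, and from 122551 to 179046 in IKKβ+/+ saline mice. The members' r with this sum lay between -0.49 (Cd34) and 0.02 (Pi16), and between -0.55 and -0.26 on deviations from group means. On levels only Cd34 passed by r (adjusted permutation p = 0.0624), and no member passed by rho. Smooth muscle cells also make several of these genes, so their source in whole aorta cannot be told apart.

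**Figure D5:**
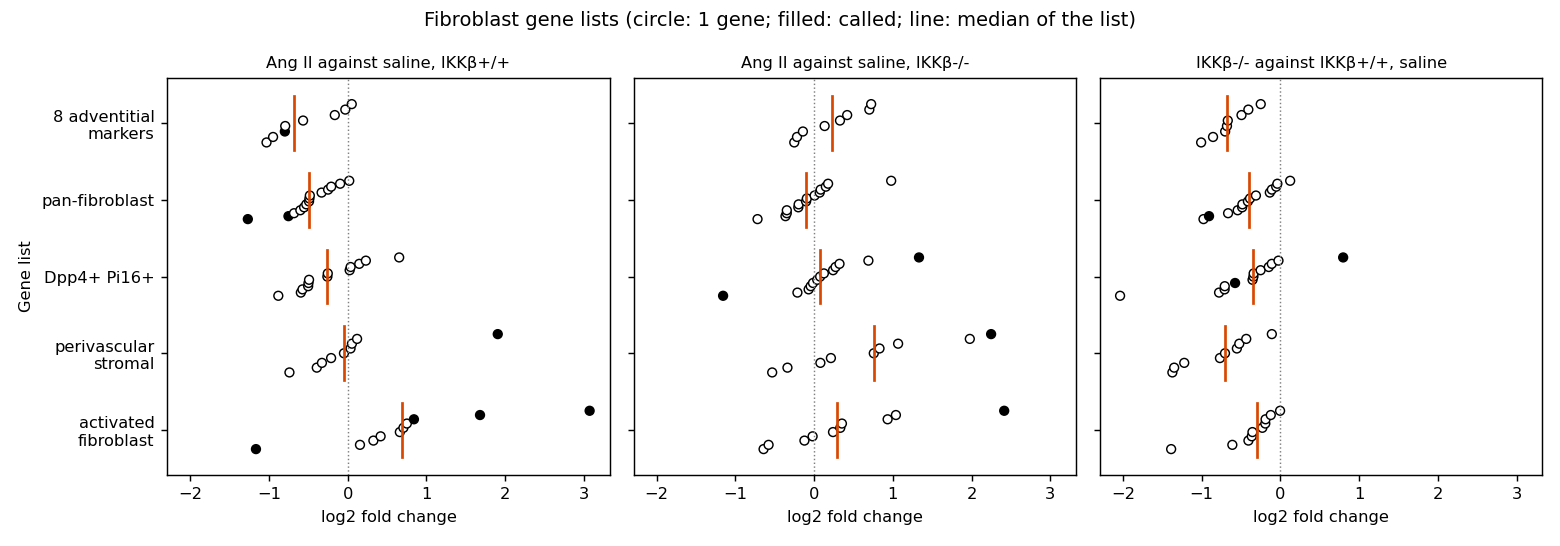
Log2 fold change (x axes) of each gene of the 8 adventitial markers and of 4 lists of fibroblast genes (y axis) in 3 comparisons, with filled circles for called genes and a line at the median of a list. With Ang II in IKKβ+/+ mice the medians are -0.68 for the 8 markers and 0.68 for activated fibroblast genes.

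Of 19 family relatives of the members, 6 were called lower with Ang II in IKKβ+/+ mice, where 4.33% of all genes were called lower. Among them Podxl and Podxl2, sialomucins of the Cd34 family, changed by -1.19 (SE 0.26, adjusted p = 0.0142) and -0.91 (SE 0.15, adjusted p = 0.00357). The receptor tyrosine kinase gene Kit, a relative of Pdgfra, changed by -1.34 (SE 0.45, adjusted p = 0.0950) and Ly6e, of the Ly6 family, by -0.79 (SE 0.24, adjusted p = 0.0626). With Ang II 3 were called lower in IKKβ-/- mice, Podxl by -0.93 (SE 0.27, adjusted p = 0.0704), Podxl2 by -0.87 (SE 0.16, adjusted p = 0.00800) and the scavenger receptor gene Scara3 by -0.56 (SE 0.13, adjusted p = 0.0232). Podxl is also an endothelial gene. Of the ligands and the second receptor of the PDGF family, Pdgfd was called lower with Ang II in IKKβ+/+ mice, 2019 ± 468 normalized counts against 2809 ± 380.2 (n = 5 each), a change of -0.50 (SE 0.16, adjusted p = 0.0705). Pdgfa, Pdgfb, Pdgfc and Pdgfrb were not called in any of the 7 comparisons.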

How the data were processed

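A deposited table held RNA-Seq values of 20408 genes for the suprarenal aortas of 19 mice. The authors made stranded poly(A) libraries, used Trimmomatic 0.35 on single reads, STAR 2.7.1a against GRCm38 and DESeq2 1.30.1 to normalize, per the submitters' processing notes. The deposited signal values are these normalized counts, and of the values worth up to 1000 reads, once divided by the value of 1 read estimated for each mouse, 100% were whole within 0.01 reads. Aortas were cleared of adventitial fat before RNA extraction, which can change the share of adventitia in a library. Members and lists were chosen with earlier results of these data known.

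Testing took the 14845 genes that reached 10 normalized counts in 4 or more mice (5563 did not) with limma 3.58.1 in R 4.3.3 on log2(normalized count + 1), with a mean for each of 4 groups, two-sided, with Benjamini-Hochberg adjustment. The step was tested on simulated data. Alternatives were another pseudocount (4), no filter, only the groups compared, TMM scaling, a stricter adjusted p (0.05), recovered reads in edgeR 4.0.16 and DESeq2 1.42.0, marker scores as covariates, and each mouse left out. Correlations used 100000 resamples. Named genes are the members, up to 4 called genes with the largest change per fibroblast, PDGF or family list and comparison, and the 3 genes most correlated with each member.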

Additional observations from a re-analysis of the deposited data

How the results depend on the processing

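The number of members called with Ang II in IKKβ+/+ mice (1) became 3 when only the groups compared were fitted, 2 with the adipocyte score as a covariate, 0 with the smooth muscle score and 2 without mice X2350 and X2380 (chosen after seeing the data). In IKKβ-/- mice (0) it became 3 without those mice. Between genotypes with saline (0) it became 3 with only the groups compared and 2 without those mice. When each of the 19 mice was left out in turn, these 3 counts ran from 0 to 3, from 0 to 2 and from 0 to 1, and that averaged over genotypes from 0 to 1. They stayed at 0 between genotypes with Ang II, averaged over treatments and for the difference. Averaged over genotypes and without mice X2350 and X2380, Cd34 lost its call (adjusted p = 0.117) and Gsn passed as higher (adjusted p = 0.0797). A pseudocount of 4, no filter, TMM scaling, edgeR, DESeq2 and an adjusted p under 0.05 changed no member's call. Why the covariates moved calls was not tested. No called member changed sign, and uncalled fold changes of members changed sign in 43 of 536 values under other settings and 34 of 1064 without 1 mouse. All 8 members stayed below 0 between genotypes with saline under each scaling and tool, and 7 did under each covariate, where Ly6a was at 0.02. Of the 28 correlations, between 25 and 28 passed when 1 mouse was left out. No paired analysis was possible because the groups share no mouse numbers. The lowest member value was 433 normalized counts (Pdgfra, mouse X2380), and the parts of depth and of the spread between mice in these results were not tested.

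Counts over all genes moved by over 1.5 times in some settings. With Ang II in IKKβ+/+ mice (1286) 638 were called at an adjusted p under 0.05, 460 with the smooth muscle score and 700 without mice X2350 and X2380. In IKKβ-/- mice (785) the count was 295 with only the groups compared, 412 at 0.05, 3 with the adipocyte score and 1260 without those mice. Between genotypes with saline (812) it was 1420 with only the groups compared, 1437 with DESeq2, 136 at 0.05, 35 with the adipocyte score, 1806 with the smooth muscle score and 1301 without those mice. With Ang II (19) it was 521 with DESeq2, 1 with only the groups compared or the smooth muscle score, and 0 at 0.05, with the adipocyte score or without those mice. Averaged over genotypes (1887) it was 872 with the adipocyte score, and averaged over treatments (1075) it was 353 at 0.05. For the difference (0) it was 3 with edgeR and 279 with DESeq2. With 1 mouse left out, counts ran from 431 to 1918 with Ang II in IKKβ+/+ mice, 433 to 1082 in IKKβ-/- mice, 24.0 to 1727 between genotypes with saline and 0 to 553 with Ang II.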

Other observations

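Ratios between the 8 markers within a mouse cancel any factor that scales all of them in that mouse. They were computed after the levels had been seen, for all 28 pairs in 3 comparisons (84 exact permutation tests, two-sided, adjusted together), and pairs share genes. With Ang II in IKKβ+/+ mice 9 ratios passed at an adjusted p under 0.1, each with an exact p = 0.00794, the smallest that 5 against 5 mice allow, and an adjusted p of 0.0741. In these 9 all 5 Ang II mice lay on 1 side of all 5 saline mice, and the share of such ratios among other genes was not computed. Clec3b did not overlap between these groups by itself, as 8.42% of all genes tested did not. Gsn is also made by smooth muscle, and the part of tissue composition in these ratios was not tested. Cd34, Pdgfra, Scara5 and Clec3b were on the lower side, and Ly6a, Pi16 and Gsn on the higher side. The log2 ratio of Pi16 to Clec3b was 1.77 ± 0.41 with Ang II and 0.77 ± 0.24 with saline (SD, n = 5 each). The log2 ratio of Cd34 to Ly6a differed by -0.85 and that of Scara5 to Gsn by -0.78.

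In IKKβ-/- mice 0 of 28 ratios passed at an adjusted p under 0.1, while 8 had an exact p under 0.05. The log2 ratio of Clec3b to Gsn was -4.41 ± 0.36 with Ang II (n = 5) and -3.46 ± 0.41 with saline (n = 4), with an exact p = 0.0159 and an adjusted p of 0.103. In IKKβ+/+ mice the same ratio was -4.35 ± 0.20 with Ang II and -3.48 ± 0.12 with saline (exact p = 0.00794, n = 5 each). The log2 ratio of Cd34 to Pi16 differed by -0.94 in IKKβ-/- mice (exact p = 0.0159) and by -0.77 in IKKβ+/+ mice (exact p = 0.00794). Whether the genotypes differ in these ratios was not tested. Between genotypes with saline 0 of 28 passed, and 3 had an exact p under 0.05.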
